A study of Mus musculus with 4 samples.

Results

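The transcripts of 10 transcription factor genes that steer blood progenitors towards myeloid or lymphoid fates were followed in single mouse hematopoietic stem and progenitor cells (HSPCs). The genes were chosen by name, whatever their level, as Ikzf1, Ikzf2, Runx1, Runx2, Runx3, Spi1, Cebpa, Irf8, Gfi1 and Tcf3, and all 10 were found once each among the 28692 genes listed. HSPCs were sorted from bone marrow as Lin-, Sca1+, cKit+ cells without Flt3, so the sort leaves the Flt3+ progenitors out, and were captured with a droplet-based 10x Genomics assay that counts unique molecular identifiers (UMIs), one for each captured RNA molecule. The animals were C57BL/6-CD45.2 male mice with no treatment or genetic change named, either young (2 to 3 months) or aged (17 to 18 months). Each age had 2 pools of animals, one on each of 2 capture and sequencing platforms, here A and B: young A held 2 mice, young B 3 mice, aged A 3 mice and aged B 2 mice. The mice of a pool cannot be told apart, so the replicate was the pool, age was compared across 2 pools against 2, and platform was kept as a block. The age of a pool was taken from its title and source name, while the free-text descriptions of young B and aged A name the other age.

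Blood formation runs from long-lived stem cells through progenitors that gradually lose alternatives, and a small number of DNA-binding factors set which genes each branch can use. Ikaros family proteins and Runx proteins act early and in several branches, the ETS factor encoded by Spi1 and the C/EBP factor encoded by Cebpa open the granulocyte and monocyte programme, Irf8 favours monocytes and dendritic cells while Gfi1 favours neutrophils, and the E protein gene Tcf3 is needed for B and T cell development. Many of these factors are already transcribed at low levels in stem cells, before any branch is taken.

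The kept 14915 cells comprised 5189 of young A, 2244 of young B, 3328 of aged A and 4154 of aged B, with a median of 5674 to 6719 UMIs per cell, and 99 kept barcodes were found in more than 1 pool. Levels are given in CPM, the UMIs of a gene in every 1000000 UMIs of the summed cells. The sort genes Kit (71.7 to 164 CPM) and Ly6a, which encodes Sca1 (164 to 355 CPM), were detected in all 4 pools. Flt3 was not absent, at 48.0 and 15 CPM in the young and 10.5 and 2.40 CPM in the aged pools. Transcripts of 6 plasma cell markers summed to 511 and 384 CPM in the young pools and to 4497 and 2052 CPM in the aged ones, those of 6 T and NK cell markers to 207 and 241 CPM against 100 and 81.7, those of 10 mast cell and basophil markers to 2106 and 2222 CPM against 981 and 646, and those of 10 HSC markers to 779 and 727 CPM against 1581 and 1429. Transcripts of 10 neutrophil markers went the other way from the mast cell ones, at 1389 and 1564 CPM in young against 1996 and 1842 in aged pools. Those of 10 megakaryocyte markers summed to 358 and 301 CPM against 569 and 601. No marker of these lists was at 0 in all pools, and the part of these cells in the age differences below was tested only by leaving out clusters. In sums over whole pools, fewer cells of a type and less RNA per cell cannot be told apart, and ages are also compared within clusters below.

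On GRCm38 (GENCODE annotation) the members lie on 10 chromosomes. Ikzf1 spans chr11:11685003-11772926 (+), Ikzf2 chr1:69531214-69687245 (-), Runx1 chr16:92601466-92826149 (-), Runx2 chr17:44495987-44814797 (-), Runx3 chr4:135120652-135177990 (+) and Spi1 chr2:91082390-91115756 (+). Cebpa spans chr7:35119293-35121928 (+), Irf8 chr8:120736358-120756694 (+), Gfi1 chr5:107716657-107726036 (-) and Tcf3 chr10:80409514-80433647 (-). A listed gene overlaps Ikzf1, Ikzf2, Runx1, Runx3 and Cebpa on the opposite strand, and 4 overlap Runx2. The sources used here do not give whether the counting used strand, so whether reads of such pairs were told apart is not known here. Irf8 is overlapped on its own strand by Gm20388, which had 0 UMIs in every pool.

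The promoters of Runx3, Cebpa and Irf8 are shown because these 3 members differed most between the progenitor classes compared below. Each is the 250 bases before an annotated start (RefSeq, GRCm38.p6), written 5′ to 3′ on the plus strand, which is the strand of all 3 genes. For Runx3 (chr4:135120395-135120644, the first of its 2 listed starts), capitals mark 2 matches to the Runx site TGTGGT on either strand, while the window of the second start held 0. This motif was found in 14.0% of 32851 mouse promoters of that length:
Runx3: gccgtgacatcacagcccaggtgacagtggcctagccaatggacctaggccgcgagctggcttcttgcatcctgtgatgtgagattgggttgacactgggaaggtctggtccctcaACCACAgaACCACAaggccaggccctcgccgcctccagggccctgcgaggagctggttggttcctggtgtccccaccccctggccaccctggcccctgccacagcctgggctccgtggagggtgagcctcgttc

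In the promoters of Cebpa (chr7:35119043-35119292) and Irf8 (chr8:120736108-120736357, the first of its 2 listed starts), capitals mark the ETS core GGAA, the letters that factors such as the Spi1 protein read. Each held 1 match, and 93.4% of all promoters hold at least 1, so its presence says little.
Cebpa: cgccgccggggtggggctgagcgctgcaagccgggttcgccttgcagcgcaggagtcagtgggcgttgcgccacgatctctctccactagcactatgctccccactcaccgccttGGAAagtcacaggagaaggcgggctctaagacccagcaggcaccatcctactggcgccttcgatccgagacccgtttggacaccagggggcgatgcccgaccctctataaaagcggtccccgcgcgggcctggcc
Irf8: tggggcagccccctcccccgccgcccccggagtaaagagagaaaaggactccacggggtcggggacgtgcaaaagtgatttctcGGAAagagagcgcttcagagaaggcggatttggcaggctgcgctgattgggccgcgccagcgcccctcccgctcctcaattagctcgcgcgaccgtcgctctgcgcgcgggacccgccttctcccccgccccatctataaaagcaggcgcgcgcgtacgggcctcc
The Runx3 window shown held 2 ETS cores, which are not marked, and those of Cebpa and Irf8 held 0 Runx sites. The longer ETS letters GAGGAA (23.3% of promoters) were found in none of the 3 windows. The Gfi1 core AAATCA (12.4% of promoters) was matched once in that of Irf8, on one strand or the other. A match is a run of letters and not a shown binding site.

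Of the 10 members, 1 passed the test of aged against young pools: Cebpa fell with age, while none rose (edgeR quasi-likelihood test with platform as a block, Benjamini-Hochberg adjusted p below 0.05 over 13555 genes). The same test called 275 genes, 2.03% of those tested, 217 of them higher and 58 lower in aged pools. Estimated differences were negative for 8 members, with a median log2 difference of -0.56 against 0.01 over all genes tested. In 4 members, Ikzf2, Runx3, Spi1 and Irf8, both aged pools lay below both young pools, and in none did they lie above. Over all genes tested, 13.6% had aged pools wholly below and 18.1% wholly above the young ones.

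Cebpa, which encodes the factor that commits progenitors to granulocytes, was at 25.4 CPM in young A, 2.74 in young B, 9.52 in aged A and 0.841 in aged B. On either platform the aged pool was the lower, but the ages overlapped, with both B pools far below both A pools. Its log2 difference was -1.59 ± 0.20 (SE, 2 pools per age, edgeR adjusted p = 0.0346), and within the platforms, with 1 CPM added, -1.33 on A and -1.02 on B. The B pools held only 45 and 28 Cebpa UMIs. Without the cells of the lineage-named clusters described below, the 4 levels were 9.14, 0.718, 2.67 and 0.225 CPM, and the difference of -1.81 ± 0.32 no longer passed (edgeR adjusted p = 0.0895).

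Spi1, the ETS factor gene at the base of the myeloid programme, was at 149 and 130 CPM in the young pools and at 90.0 and 94.3 CPM in the aged ones. The ages did not overlap, and the log2 difference was -0.65 ± 0.19, which did not pass (edgeR adjusted p = 0.190). Irf8, which favours monocyte and dendritic cell fates, was at 17.7 and 11.4 CPM in young against 10.3 and 6.58 CPM in aged pools. Its ages did not overlap either, by a narrow margin, with a log2 difference of -0.84 ± 0.18 (edgeR adjusted p = 0.108). Gfi1, a repressor that favours neutrophils and restrains stem cell cycling, was at 22.3 CPM in young A, 2.195 in young B, 19.1 in aged A and 1.352 in aged B. Its pools separated by platform and not by age (log2 difference -0.48 ± 0.20, edgeR adjusted p = 0.358).

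Runx3, the Runx gene best known for T cell and sensory neuron development, came closest to passing of the members that did not. It was at 46.2 and 40.1 CPM in young and at 23.7 and 19.4 CPM in aged pools, so the ages did not overlap. Its log2 difference was -1.05 ± 0.16 (edgeR adjusted p = 0.0504), with -0.93 within platform A and -1.01 within B. Runx1, needed for the first stem cells of the embryo, was the member with the highest estimate, at 63.3 and 46.2 CPM in young and 92.6 and 54.6 CPM in aged pools. The aged pool was the higher on each platform while the ages overlapped, and the log2 difference of 0.34 ± 0.16 did not pass (edgeR adjusted p = 0.395). Runx2, a bone factor also used in lymphoid and dendritic cells, was at 32.7, 24.8, 32.2 and 16.8 CPM in young A, young B, aged A and aged B, with overlapping ages (log2 difference -0.34 ± 0.18, edgeR adjusted p = 0.470).

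Ikzf2, which encodes Helios, an Ikaros relative found in stem cells and regulatory T cells, was at 87.3 and 81.0 CPM in young and at 58.8 and 38.3 CPM in aged pools. The ages did not overlap, and the log2 difference was -0.88 ± 0.18 (edgeR adjusted p = 0.0942). Ikzf1, which encodes Ikaros itself and is required for lymphoid cells, was at 68.6, 38.5, 72.5 and 24.995 CPM in young A, young B, aged A and aged B, so its ages overlapped (log2 difference -0.32 ± 0.20, edgeR adjusted p = 0.543). Tcf3 was at 102, 26.6, 85.9 and 38.6 CPM in the same order. Its estimate of 0.09 ± 0.26 (edgeR adjusted p = 0.922) joined opposite differences on the platforms, -0.25 on A and 0.52 on B.

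**Figure D1:**
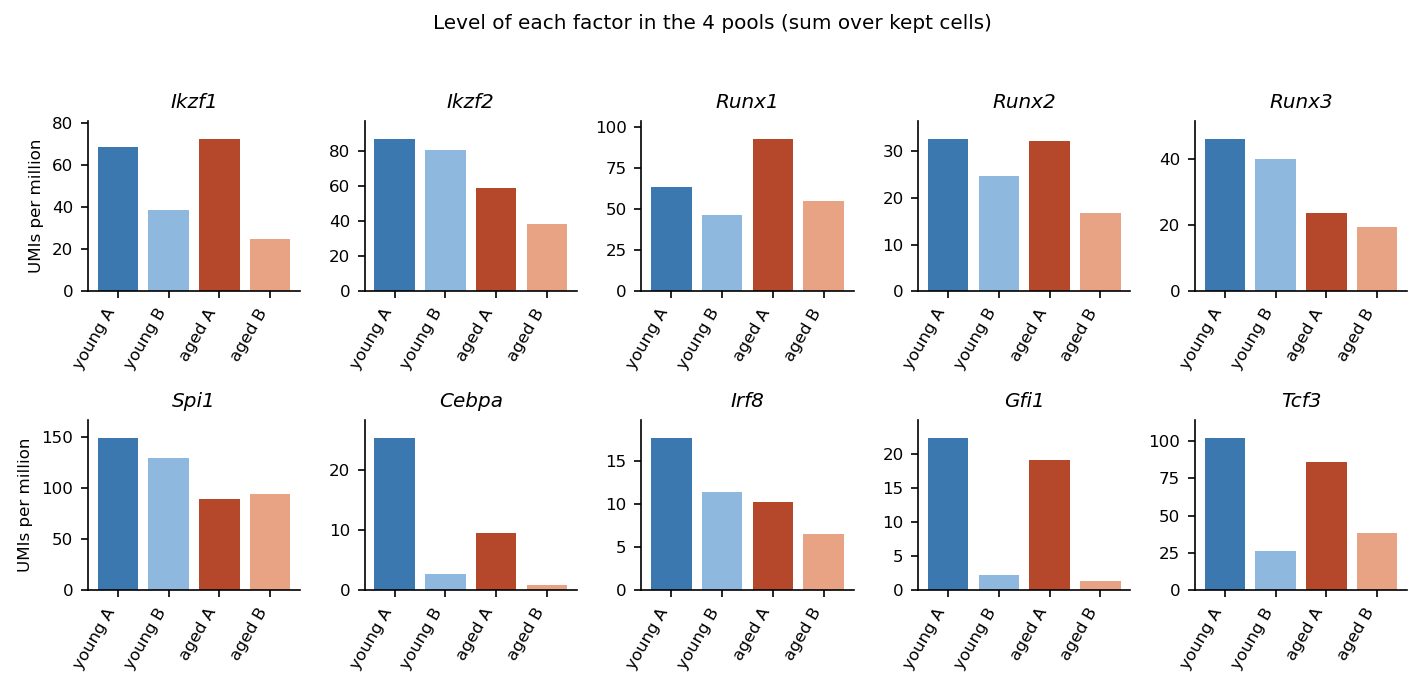
Level of each member in CPM (vertical axis) in the 4 pools, with young and aged pools side by side and the platforms marked. Aged pools lie wholly below young pools for Ikzf2, Runx3, Spi1 and Irf8. For Gfi1, Cebpa, Tcf3, Ikzf1, Runx1 and Runx2 both A pools lie above both B pools.

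In 3 members platform A was at least 2 times platform B at both ages. Gfi1 was 10.1 times higher in the A than in the B pool among young and 14.1 times among aged animals, Cebpa 9.26 and 11.3 times, and Tcf3 3.83 and 2.22 times. Among the 13555 genes tested, 64 (0.472%) were at least 8 times higher on A at both ages, Gfi1 and Cebpa among them, and 1615 (11.9%) were at least 2 times higher. The remaining ratios lay between 0.955 and 2.90. They were 1.15 among young and 0.955 among aged animals for Spi1, 1.15 and 1.22 for Runx3, and 1.08 and 1.53 for Ikzf2. Means of Gfi1, Cebpa and Tcf3 over the 4 pools therefore rest mostly on the A pools.

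The share of cells with at least 1 UMI was compared after each cell was thinned to 3000 UMIs, which left out 0 cells of young A, 50 of young B, 176 of aged A and 4 of aged B. Spi1 was detected in 36.2% and 33.0% of young and in 21.9% and 24.4% of aged cells, a mean difference of -11.4 percentage points, where all UMIs gave -13.8. The thinned shares of Ikzf2 were 22.8% and 21.2% against 15.9% and 11.3%, those of Runx3 11.5% and 9.89% against 6.09% and 4.65%, and those of Irf8 3.08% and 2.60% against 1.71% and 1.42%. For these 4 members both aged pools had the lower share (exact permutation test, two-sided, p = 0.333 each, the smallest that 2 pools against 2 allow). Such shares were not counted over all genes. Runx1 was the only member with a higher mean share in aged pools, 24.0% and 15.5% against 17.7% and 13.5%, which overlap. Cebpa was detected in 5.05% of young A, 0.775% of young B, 2.16% of aged A and 0.145% of aged B cells. In the erythroid-primed cluster described below, taken as cells that should lack it, Gfi1 was detected in 0.218% of thinned cells over all 4 pools. Its level there was 3.49 CPM in young A and 0 CPM in young B, aged A and aged B. Over whole pools it was detected in 7.27% of thinned cells in young A, 177 of 3152 in aged A, and 0.820% and 0.410% in the B pools.

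HSPCs were next divided by the transcripts of 2 surface genes that separate stem cells from more advanced progenitors. Cells with at least 1 Slamf1 UMI and no Cd48 UMI are called Slamf1 cells, the combination that marks long-term stem cells on the surface, and cells with Cd48 and no Slamf1 are called Cd48 cells. Transcripts are sparse, so most cells fall in neither class. Slamf1 cells numbered 277 in young A, 116 in young B, 676 in aged A and 1168 in aged B, or 5.34%, 5.17%, 20.3% and 28.1% of their pools. Cd48 cells numbered 1170, 492, 243 and 144, or 22.5%, 21.9%, 7.30% and 3.47%. Median UMIs per cell were 6258 to 7614 in Slamf1 and 6979 to 9480 in Cd48 cells, and in each pool the Cd48 cells had the higher median.

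Transcripts of 7 of the 10 members were higher in Cd48 than in Slamf1 cells and none was lower, in a comparison within the same 4 pools (edgeR, pool as a block, adjusted p below 0.05). The background was high, since 33.7% of 11250 genes were called, 1918 higher and 1878 lower. Cebpa and Irf8 differed most, followed by Runx3, Ikzf2, Spi1, Ikzf1 and Tcf3. In 8 members the Cd48 cells had the higher level in all 4 pools, the exceptions being Runx2 and Gfi1 with 2 pools each. How many of all genes did so was not counted.

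Cebpa was at 62.5, 7.52, 69.8 and 15.4 CPM in the Cd48 cells of young A, young B, aged A and aged B, and at 5.46, 0, 2.17 and 0 CPM in their Slamf1 cells. The 0 values allow up to 3.31 CPM in young B and 0.286 CPM in aged B (3 UMIs over each sum). The fitted log2 difference was 4.83 ± 0.35 (edgeR adjusted p = 1.37e-07). Irf8 was at 44.5, 21.1, 54.0 and 76.5 CPM in Cd48 cells and at 5.46, 6.61, 6.07 and 3.05 CPM in Slamf1 cells, a log2 difference of 3.71 ± 0.28 (edgeR adjusted p = 1.72e-07). The classes did not overlap for either gene.

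Runx3 was at 67.2, 56.1, 50.8 and 40.7 CPM in Cd48 cells against 31.8, 28.7, 16.1 and 17.0 CPM in Slamf1 cells. The lowest Cd48 value was above the highest Slamf1 value, and the log2 difference was 1.32 ± 0.14 (edgeR adjusted p = 6.13e-06). Spi1 was at 170, 162, 149 and 183 CPM against 130, 94.8, 79.6 and 85.8 CPM (0.84 ± 0.11, edgeR adjusted p = 3.91e-05), again without overlap. Ikzf2 was at 94.3, 91.6, 107 and 69.5 CPM against 69.5, 66.1, 45.8 and 31.5 CPM (0.89 ± 0.14, edgeR adjusted p = 0.000194), higher in Cd48 cells in each pool although the ranges of the classes met.

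Ikzf1 (0.68 ± 0.12, edgeR adjusted p = 0.000408) and Tcf3 (0.39 ± 0.10, edgeR adjusted p = 0.00787) were also higher in Cd48 cells. Runx1 missed the threshold at 0.25 ± 0.10 (edgeR adjusted p = 0.0545). Runx2 (0.02 ± 0.14, edgeR adjusted p = 0.928) and Gfi1 (0.18 ± 0.25, edgeR adjusted p = 0.637) had the smallest estimates.

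Part of the class difference moved with lineage-primed cells. Lineage-named clusters are those described below that met a blood lineage list. Among them is counted cluster 13, which met the pL2 (B cell) list but stayed unnamed. Together these clusters held 38.5% of young and 67.7% of aged Cd48 cells, but 5.09% and 2.11% of Slamf1 cells. Without them, a setting added after the data were seen, Irf8 was at 8.53, 7.31, 6.70 and 2.17 CPM in Cd48 cells and at 5.88, 6.11, 6.20 and 3.15 CPM in Slamf1 cells. The classes then overlapped, and the log2 difference dropped to 0.31 ± 0.35 (edgeR adjusted p = 0.607). Cebpa kept its call with a smaller difference of 2.71 ± 0.45 (edgeR adjusted p = 4.51e-05), at 21.2, 0.996, 11.7 and 4.34 CPM against 3.74, 0, 2.22 and 0 CPM. Runx3 was little changed at 1.48 ± 0.16 (edgeR adjusted p = 3.21e-08), and 6 of the 10 members passed, against 20.6% of 10812 genes. This setting kept the replicating (rep-like) and dividing (div-like) cells, where Runx3 averaged 49.7 and 44.9 CPM, against 10.4 CPM in cluster 1. Rep-like cells were 23.6% of all young and 13.4% of all aged Cd48 cells, but 10.9% and 7.54% of Slamf1 cells. Their part in the difference was not tested.

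**Figure D2:**
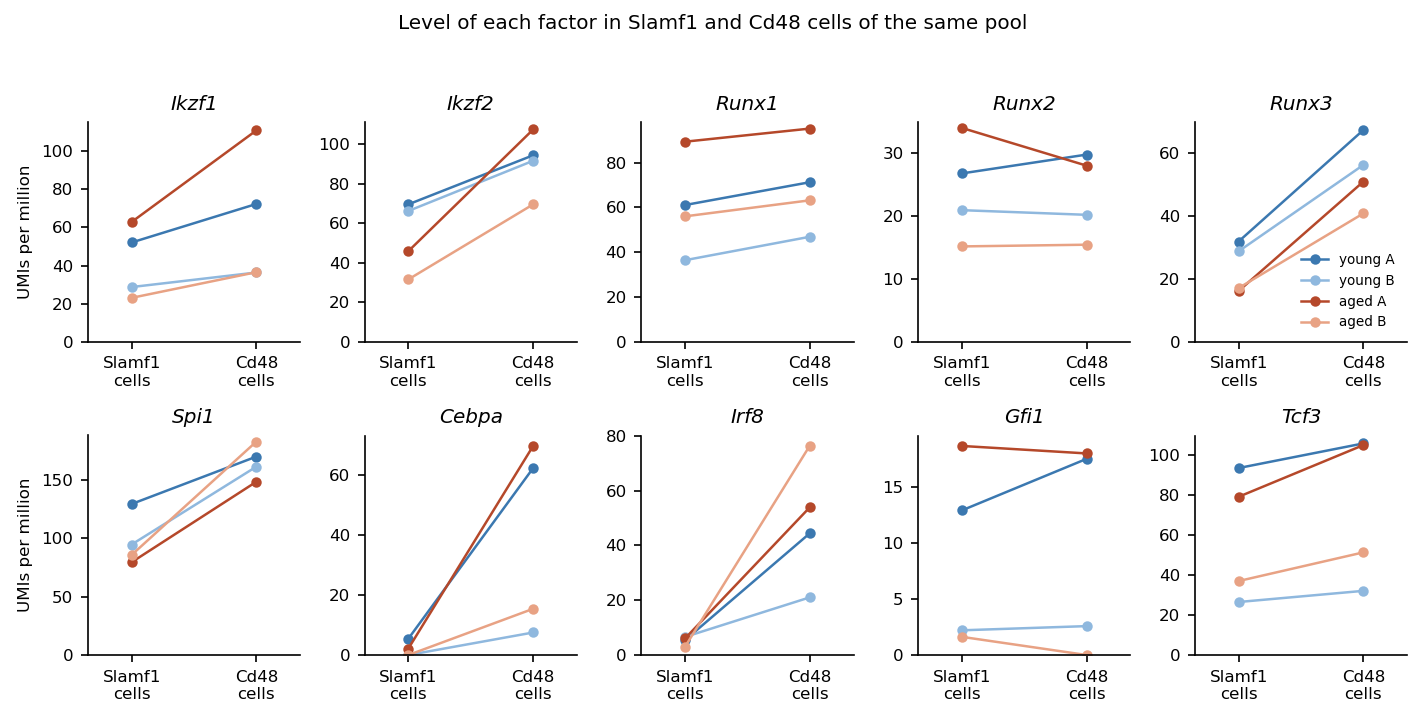
Level of each member in Slamf1 and Cd48 cells of the 4 pools, in CPM, with the classes of one pool joined by a line. The lines of Cebpa, Irf8, Runx3, Spi1 and Ikzf2 rise in all 4 pools, while those of Runx2 and Gfi1 go both ways.

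The age comparison was repeated within each class. In Slamf1 cells 9 members had enough counts and none passed, with 3 at an unadjusted p below 0.05 by edgeR and 1 by DESeq2, which called none either. The same edgeR test called 1.97% of 10773 genes and gave 1147 of them an unadjusted p below 0.05. Ikzf2 came closest, at 69.5 and 66.1 CPM in young and 45.8 and 31.5 CPM in aged Slamf1 cells (log2 difference -0.85 ± 0.22, edgeR adjusted p = 0.0637). Runx3 was at 31.8 and 28.7 against 16.1 and 17.0 CPM (-0.91 ± 0.27, edgeR adjusted p = 0.118). Runx1 was at 61.1 and 36.4 against 89.4 and 56.0 CPM (0.55 ± 0.22, edgeR adjusted p = 0.342). The ages did not overlap for Ikzf2 and Runx3 and overlapped for Runx1. Cebpa was not tested, with 11, 0, 10 and 0 UMIs.

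In Cd48 cells none of the 10 members passed, with 1 at an unadjusted p below 0.05 by edgeR and 1 by DESeq2, which called none either. Only 0.386% of 10368 genes were called by edgeR, and 592 had an unadjusted p below 0.05. The member at an unadjusted p below 0.05 was Irf8, with a log2 difference of 1.05 ± 0.36 (edgeR adjusted p = 0.658). Its level was higher in both aged than in both young pools, by 0.27 on A and 1.81 on B with 1 CPM added. Lineage-named clusters held 67.7% of aged and 38.5% of young Cd48 cells. Without them Irf8 was at 8.53 and 7.31 CPM in young and 6.70 and 2.17 CPM in aged Cd48 cells. Both aged pools were then the lower, a difference that was not tested. Spi1 (0.01 ± 0.23, edgeR adjusted p = 0.999) and Ikzf2 (-0.08 ± 0.22, edgeR adjusted p = 0.994) had estimates near 0, and Cebpa was at 0.48 ± 0.29 (edgeR adjusted p = 0.969).

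Whether the age difference itself differed between the classes was tested as an interaction. Ikzf2 passed, as 1 of 10 members, against 2.07% of 11250 genes. The aged minus young difference of Ikzf2 was 0.79 ± 0.16 higher in Cd48 than in Slamf1 cells (log2, edgeR adjusted p = 0.0113). Aged Slamf1 cells were below young ones on both platforms, while aged Cd48 cells were above young ones on A and below them on B. Spi1 followed with 0.51 ± 0.15 (edgeR adjusted p = 0.0797). Irf8 (1.39 ± 0.56, edgeR adjusted p = 0.260) and Cebpa (1.97 ± 0.74, edgeR adjusted p = 0.213) had larger estimates with larger errors. Without the lineage-named clusters Ikzf2 had 0.81 ± 0.24 and did not pass (edgeR adjusted p = 0.0818), and Irf8 turned to -0.51 ± 0.85.

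**Figure D3:**
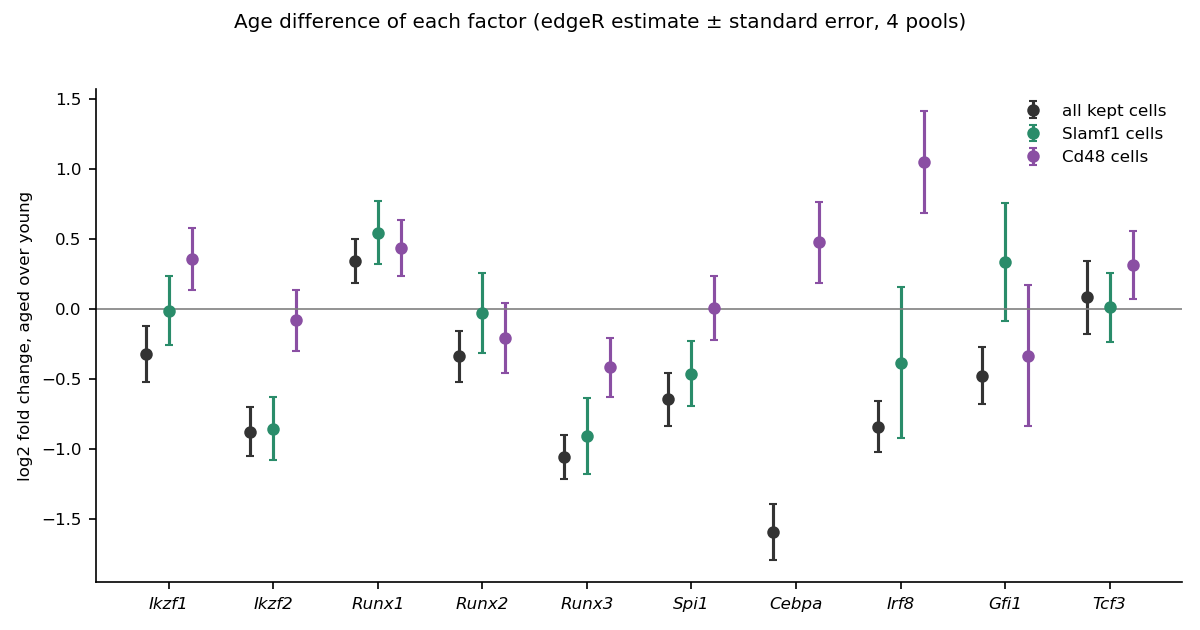
Log2 difference of aged from young pools for each member with its SE (edgeR), over whole pools, in Slamf1 cells and in Cd48 cells, with a line at 0. Ikzf2, Runx3, Spi1 and Irf8 lie below 0 over whole pools. In Cd48 cells, with the lineage-named clusters kept, Ikzf2 and Spi1 lie near 0 and Irf8 above it.

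Cells of all pools were also grouped by their whole transcriptome, with the 10 members left out of the genes used, into 14 clusters. Those with enough markers of a list taken from the study were named with the suffix -like: pEr (erythroid), pMk (megakaryocyte), pMast (mast cell and basophil), pNeu (neutrophil), pL1 (lymphoid), ifn (interferon response), tgf (immediate-early genes), rep (replication) and div (division). The names were rebuilt here and may differ from those of the study, and 5 clusters stayed unnamed. Cluster 13, with 37 cells led by immunoglobulin and haemoglobin genes, and the pL1-like cluster, with 109 cells of which 9 were aged B, were too thin in some pool to be ranked, so 12 clusters were ordered by the mean CPM of the 4 pools. The clusters of one pool share its library and depth, and their levels are a description with no test.

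Cebpa was highest in pMast-like cells (mean 189 CPM, pools 353, 69.0, 293 and 39.9), next to pNeu-like cells (141, 15.03, 103 and 21.7 CPM), and lowest in cluster 1 (mean 1.51 CPM). In thinned cells it was detected in 47.9% of pMast-like cells (exact Clopper-Pearson 95% interval 40.7 to 55.2), 23.2% of pNeu-like cells (19.5 to 27.3) and 0.347% of cluster 1. Together pNeu-like and pMast-like cells, 3.25% and 1.32% of all cells, held 34.9% and 32.6% of Cebpa UMIs.

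Irf8 split from Cebpa in the mast cell branch. It was highest among ranked clusters in pNeu-like cells (mean 80.1 CPM, pools 99.96, 44.0, 77.9 and 98.4), where 15.1% of thinned cells held it, but in pMast-like cells it was in 0.521%, near the 0.437% of pEr-like cells. The unranked pL1-like cluster had 914, 199, 254 and 688 CPM and, with 0.731% of cells, 27.4% of all Irf8 UMIs, against 30.1% in pNeu-like cells. These UMIs lay in a minority of its cells, since 18.3% of the 109 pL1-like cells held Irf8 (17.3% of thinned cells). A Cebpa UMI was found in 0 of 98 thinned pL1-like cells, which allows a share of cells with a UMI of up to 3.06%, and in 1.83% of the 109 cells when all UMIs were used.

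Spi1 was broad. It was highest in pNeu-like cells, at 247, 230, 232 and 245 CPM, followed by pMast-like cells at 187, 193, 210 and 256 CPM, and lowest in pEr-like (mean 57.8 CPM) and pMk-like cells (58.7 CPM). The pNeu-like and pMast-like ranges overlapped, both lay above that of cluster 0 next in order, and the pMk-like range lay below that of cluster 1. In thinned cells it was detected in 52.3% of pNeu-like and 18.1% of pEr-like cells. Gfi1 was highest in cluster 4 (mean 18.6 CPM, with 49.3, 3.09, 20.4 and 1.67 CPM in the pools), a cluster without a lineage list, and lowest in pEr-like cells (mean 0.871 CPM). Among ranked clusters, cluster 4 led only in young A, whereas pNeu-like cells led in young B (7.52 CPM) and aged A (34.6 CPM). In aged B ifn-like cells led (3.72 CPM), but the whole aged B pool held only 45 Gfi1 UMIs. The unranked pL1-like cluster, with 9 Gfi1 UMIs over all pools, was at 11.1 CPM in young B and 36.2 CPM in aged A. No neighbouring clusters in the order of Gfi1 were separate.

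The Runx genes peaked in 3 different clusters. Runx1 was highest in pMast-like cells, at 173, 131, 265 and 182 CPM, separate from the next cluster, pMk-like (63.5 to 118 CPM), and lowest in pEr-like cells (mean 46.9 CPM). Runx3 was highest in pMk-like cells, at 106, 74.0, 96.6 and 64.2 CPM, followed by pEr-like cells at 63.2, 62.3, 65.1 and 56.6 CPM, and lowest in cluster 1 (mean 10.4 CPM). Runx3 had no separate neighbours in the order, although the ends were 8.18 times apart. Runx2 varied least after Tcf3, from a mean of 32.7 CPM in cluster 0 to 13.5 CPM in pEr-like cells, a ratio of 2.42.

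Ikzf2 was highest in pMast-like cells, at 208, 166, 247 and 137 CPM, above the range of the next cluster, pNeu-like (68.3 to 114 CPM). It was lowest in pMk-like cells, at 28.5, 15.9, 29.5 and 8.02 CPM, which lay just below rep-like cells (29.7 to 66.1 CPM). Ikzf1 had the same ends, from a mean of 95.4 CPM in pMast-like to 30.5 CPM in pMk-like cells, with every neighbouring pair overlapping. Tcf3 ran from 112 CPM in pEr-like to 47.6 CPM in pMast-like cells, with all neighbours overlapping.

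**Figure D4:**
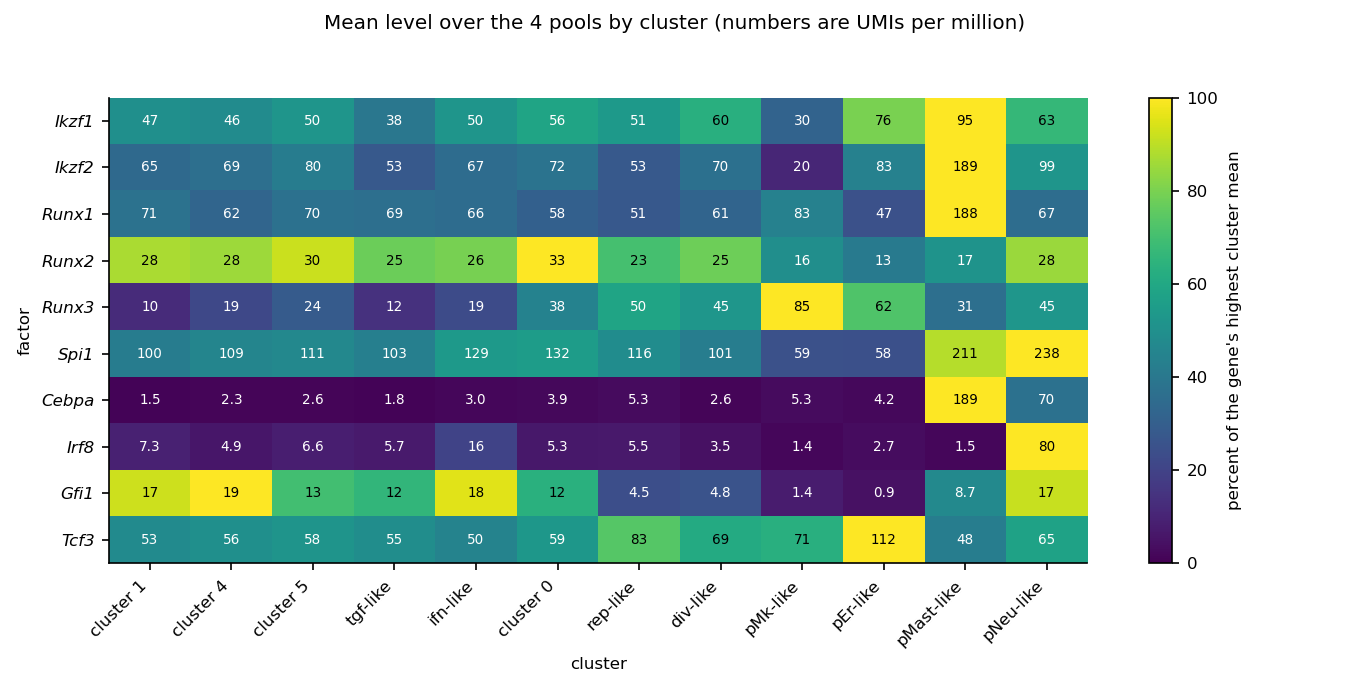
Mean level of each member over the 4 pools in each ranked cluster, in CPM. Cebpa, Ikzf2 and Runx1 peak in pMast-like cells, Spi1 and, among ranked clusters, Irf8 in pNeu-like cells, Runx3 in pMk-like cells and Tcf3 in pEr-like cells.

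Age was also compared within the 12 clusters with at least 10 cells in each pool. Of 97 tests on members none passed, and 0.808% of 98154 tests over all genes did. At an unadjusted p below 0.05 by edgeR were 29 of the 97, and 7600 of the 98154. Ikzf2 was lower in aged cells in 12 of 12 clusters, with log2 differences from -1.17 to -0.03, a median of -0.80 and a lowest edgeR adjusted p of 0.0556 in cluster 5. Runx3 was lower in 10 of 10 clusters tested (median -0.55, lowest edgeR adjusted p 0.0635) and Spi1 in 11 of 12 (median -0.60, lowest edgeR adjusted p 0.210). Runx1 was higher in 12 of 12 (median 0.31, lowest edgeR adjusted p 0.265). Cebpa was lower in the 5 clusters with enough counts, Runx2 in 8 of 8, Gfi1 in 7 of 8 and Irf8 in 4 of 6, while Ikzf1 was lower in 6 and Tcf3 in 3 of 12. The clusters share the same 4 pools, so these counts are not independent. For Cebpa the log2 differences were -0.22 in pNeu-like, -0.47 in pMast-like, -0.65 in tgf-like and -1.52 in rep-like cells, and -1.77 in cluster 0. The pNeu-like cluster held 4.51% and 4.59% of the young and 2.79% and 1.30% of the aged pools. For the pMast-like cluster these shares were 2.02% and 1.65% against 0.901% and 0.602%. Their part in the Cebpa difference over whole pools was not tested.

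The genes whose levels over the 12 ranked clusters were most like each member were listed by Pearson's r of log2(CPM + 1) among 11634 genes, as a description over clusters that share pools. Cebpa was most like the granule and phagocyte genes Ctsg (0.985), Tyrobp (0.982) and Ncf1 (0.981). Spi1 was most like Adssl1 (0.981), Emb (0.973) and Cd53 (0.957), and Runx2 most like Cd27 (0.976), Thsd1 (0.974) and Gpr171 (0.954). Genes most like Ikzf2 included Arhgap9 (0.928) and Nedd9 (0.921). For Runx3 these were Syncrip (0.968), Cfl1 (0.951) and Rcc1 (0.944), for Gfi1 Arhgef3 (0.978), Gstm1 (0.967) and Arid5b (0.960), and for Tcf3 Txnl1 (0.969), Bola3 (0.963) and Mthfd1 (0.952). Runx1 was most like Cdk2ap2 (0.937), Myl6 (0.935) and Gsn (0.916). Irf8 had the lowest values, with Rasa4 (0.918), Trim45 (0.913) and Fndc3b (0.900).

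Between members, Ikzf1 and Ikzf2 were the most alike over clusters (r = 0.907, 12 clusters), and Ikzf2 was the third gene on the list of Ikzf1, which Vim led (0.948). Runx2 and Gfi1 followed (0.808), then Runx1 and Cebpa (0.724), Runx3 and Tcf3 (0.712) and Spi1 and Cebpa (0.705). Gfi1 went against Tcf3 (-0.821) and Runx3 (-0.795).

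Members were also looked for in the same cell among 14685 thinned cells. Cebpa and Irf8 were found together in 26 cells where their separate frequencies give 7.93, a ratio of 3.28. In pNeu-like cells it was 22 cells against 17.0, and outside them 4 against 4.36, so most shared cells lay in the cluster where both genes were high. Spi1 and Cebpa shared 155 cells against 103, with 54 against 58.6 within pNeu-like cells and 101 against 68.8 outside them. The excess thus lay outside that cluster, among cells that include the pMast-like ones. Of thinned pMast-like cells 47.9% held Cebpa and 44.8% Spi1, and their part in the excess was not tested. Gfi1 and Irf8, which favour opposite branches, shared 16 cells against 13.2, and Ikzf1 with Ikzf2 shared 425 against 376. Depth, platform and pool are shared by the cells and were not removed from these counts over all pools. Within pools, Gfi1 and Irf8 shared 11 cells against 11.6 in young A and 4 against 3.03 in aged A. In young B they shared 1 cell and in aged B 0. Ikzf1 and Ikzf2 shared 229 against 229 in young A and 57 against 50.1 in young B. In aged A this was 108 against 93.1, and in aged B 31 against 31.9.

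Other genes of the same networks were read from lists, each without the 10 members. Over all genes, 2175 of 13555 had an unadjusted p below 0.05 by edgeR in the age comparison of whole pools. Among partners of Ikaros and Runx proteins 1 of 19 tested rose with age, Runx1t1, a corepressor that binds Runx partners, from 5.21 and 3.17 CPM to 23.0 and 9.79 CPM (log2 difference 1.85, edgeR adjusted p = 0.0268). Among relatives of the ETS, C/EBP, IRF and GFI families none of 21 passed, with 6 at an unadjusted p below 0.05 by edgeR. The lowest p values were those of Gfi1b (0.90, edgeR adjusted p = 0.0839), the erythroid and megakaryocyte relative of Gfi1, and Irf5 (-0.99, edgeR adjusted p = 0.0870).

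Among E proteins and their partners 1 of 9 rose, the inhibitor gene Id3 (3.81, edgeR adjusted p = 0.0217), from 0.988 and 0.427 CPM to 19.7 and 3.33 CPM. Among other myeloid factors 1 of 13 rose, the macrophage factor Maf (1.58, edgeR adjusted p = 0.0490). None of 7 erythroid and megakaryocyte counterparts passed, with 2 at an unadjusted p below 0.05 by edgeR, Klf1 (-0.77) and Gata1 (-0.52) having the lowest p.

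Genes that these factors are known to act on were read the same way. Of 23 myeloid targets 2 fell, Csf2rb, a cytokine receptor chain (-1.83, edgeR adjusted p = 0.0366), and Plac8 (-1.83, edgeR adjusted p = 0.0382), and none rose, with a list median of -0.84 against 0.01 over all genes. Of 15 lymphoid targets 3 fell, the cytokine receptor Flt3 (-2.46), the nucleotide transferase Dntt (-4.06) and Cd52 (-2.17), and 1 rose, the B cell receptor gene Cd79a (4.01). Dntt went from 7.41 and 10.2 CPM to 0.337 and 0.751 CPM, and Cd79a from 0.302 and 0.244 CPM to 6.69 and 2.73 CPM, in the pools where plasma cell markers were also higher.

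Target sets that the study drew from these same cells are no independent evidence. Of the Ikzf1 set none of 24 tested passed, with 9 at an unadjusted p below 0.05 by edgeR, Satb1 (-2.36, edgeR adjusted p = 0.0695) and Sox4 (-0.99, edgeR adjusted p = 0.0867) lowest. Of the Runx1 set 1 of 13 rose, the adhesion gene Ncam1 (2.90, edgeR adjusted p = 0.0280). None of 6 in the Tcf3 set passed, with Aco1 (0.39) and Prss36 (0.39) lowest, and none of 3 in the Runx3 set, with 0 at an unadjusted p below 0.05 by edgeR in either.

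Between the classes, where 33.7% of all genes were called in either direction, myeloid targets had the highest median of the lists. The Ikaros and Runx partners (7 of 18 called), the study's Ikzf1 set (8 of 24) and its Runx1 set (5 of 13) were near that share, so their counts are no result about these lists. Of 21 tested 17 were higher in Cd48 cells, led by Ly6c2 (6.99), the granule protease genes Ctsg (6.65) and Elane (6.22), Clec12a (6.48), the Fc receptor gene Fcgr3 (6.17) and the peroxidase gene Mpo (5.93), and Lyz2 was lower (-0.35). The list median was 3.16 and that of the lymphoid targets 1.92, with 8 of 12 higher, among them Dntt (5.88), Cd52 (4.13), Cd79a (3.18), Il7r (2.15) and Vpreb1 (1.70), and Ltb lower (-1.09). Among the ETS, C/EBP, IRF and GFI relatives 3 of 20 were higher, Cebpe (5.46), Ets1 (1.01) and Elf1 (0.45), and 6 were lower, among them Irf2 (-0.74), Ets2 (-0.74), Erg (-0.61), Fli1 (-0.59) and Irf9 (-0.52).

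Of 9 E proteins and partners 4 were lower in Cd48 cells, Lmo2 (-0.75), Lyl1 (-0.45), Tcf4 (-0.45) and Tal1 (-0.40), and none higher, where Tcf3 was higher. Of 15 other lymphoid factors 7 were lower, among them Tox (-1.46), Hes1 (-1.16), Foxo1 (-0.96), Gata3 (-0.93) and Mef2c (-0.60), and 3 higher, Satb1 (2.74), Myb (0.61) and Sox4 (0.51). Of 11 myeloid factors 6 were lower, Nab2 (-1.17), Egr1 (-1.01), Nab1 (-0.62), Junb (-0.53), Stat3 (-0.47) and Jun (-0.46), and Zeb2 was higher (0.46). Among Ikaros and Runx partners 4 of 18 were higher, Rbbp4 (0.57), Hdac2 (0.48), Gatad2a (0.45) and Cbfb (0.53), the shared partner of the Runx proteins, and 3 lower, Runx1t1 (-2.99), Ikzf4 (-1.96) and Cbfa2t3 (-0.30). Of the 7 erythroid and megakaryocyte counterparts Klf1 (2.59) and Gata1 (1.96) were higher and Nfe2 (-0.37), Zfpm1 (-0.52) and Gata2 (-0.34) lower. Of the study's Ikzf1 set 7 of 24 were higher, led by Satb1 (2.74), Ets1 (1.01), Arhgap15 (1.0005), Zbtb16 (0.97), Foxn2 (0.87) and Gatm (0.78), and Pcyt1a was lower (-0.49). Of the Runx1 set 3 of 13 were higher, Stx3 (2.00), Ets1 (1.01) and Atp6v0a1 (0.73), and 2 lower, Scrn1 (-2.11) and Speg (-1.20). In the Runx3 set 2 of 3 were lower, Kazald1 (-2.13) and B230217C12Rik (-1.08), and in the Tcf3 set 1 of 6, Calcoco1 (-0.73).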

How the data were processed

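Single-cell RNA was measured in 4 pools of HSPCs. The deposited matrices hold UMI counts per gene and barcode, which the authors made with Cell Ranger 2.2.0 (submitters' processing notes) on mm10. The annotation release and the use of strand are not given in the sources used here. Of 15566 barcodes, 14915 whose log UMI count lay within 2 SD of the pool mean were kept, and no doublet caller was run. Counts were summed per pool, class or cluster and tested with edgeR 4.0.16 (TMM, low-count filter, quasi-likelihood, R 4.3.3), with platform or pool as a block and Benjamini-Hochberg adjustment over all genes. The SE is the log2 difference over the square root of F. The letters A and B mark shared platforms, and deviations of the A pools from their age means correlated at 0.488 over 13555 genes. Pools are separate animals, 2 per age, and intervals cover counting error only. Clusters came from Seurat 5.3.0 integration (2000 variable genes, 15 components, resolution 0.5) with cell cycle removed by scran 1.30.0 scores. DESeq2 1.42.0, RLE scaling, no filter, all barcodes, no block, thinning, other clusterings and leaving out pools or lineage-named clusters were the alternatives, and the fits were tested on simulated data. All members were named, and of each list every called gene up to 6 per direction, or else the 2 with the lowest p. The 3 most alike genes of each member were also kept. A few genes that these rules select are not reported here. Members and lists were chosen with earlier results of these data known.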

Additional observations from a re-analysis of the deposited data

Results flagged for a closer look

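The age effect on Ikzf2, the Helios gene, differed between Cd48 and Slamf1 cells by 0.79 ± 0.16 on the log2 scale in the test of the difference itself (edgeR interaction, adjusted p = 0.0113). The level was 69.5 and 66.1 CPM in young and 45.8 and 31.5 CPM in aged Slamf1 cells, and 94.3 and 91.6 CPM in young and 107 and 69.5 CPM in aged Cd48 cells. Aged Cd48 cells held lineage-named clusters in 67.7% and young ones in 38.5%. Without those clusters the estimate was 0.81 with an adjusted p of 0.0818 by edgeR. Outliers were not looked for, since no group has more than 2 pools.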

How the results depend on the processing

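Of the 10 members, 1 passed over whole pools, and 3 did with DESeq2, 4 without the low-count filter, 2 with all barcodes, 0 with thinned cells, 0 without lineage-named clusters and 0 in every fit that left out 1 pool (0 to 0). The share of all genes called was 2.03%, and 4.01% with DESeq2, 4.07% without the filter, 2.54% with all barcodes, 1.51% thinned and 1.44% without lineage-named clusters. It was 287 of 13774 genes without young A and 160 of 14316 without young B, but 4 of 14080 without aged A and 0 of 13814 without aged B, so the 0 members of the last pair say nothing about the members. Without the replicate block, that is without pairing pools by platform, 0 members passed in the whole pools, the Slamf1 cells or the Cd48 cells, nor did any other gene tested, and Tcf3 turned to -0.10 over whole pools and -0.11 in Slamf1 cells. Age fits without 1 pool could keep no block, so platforms and ages were then mixed. A single remaining pool was given the spread of the other age. The class and interaction fits without 1 pool kept pool as a block. Over whole pools Cebpa ran from -3.88 to 0.57 in the age fits without 1 pool, the highest without young A. Thinned, it had an adjusted p of 0.0689 (edgeR). In Slamf1 cells 1 member passed without the filter (0 to 0 without 1 pool). In Cd48 cells 1 passed without the filter, and 0 to 1 without 1 pool, the 1 without young A. The class difference was called for 6 to 7 members without 1 pool. The interaction was called for 2 members with RLE scaling and 0 with DESeq2, where 9 of 10 members had no adjusted p. Ikzf2 was among those 9, at 0.83 (DESeq2 unadjusted p = 0.00348), so that 0 says nothing about Ikzf2. The interaction was called for 0 members with thinned cells (Ikzf2 0.52) and 0 without lineage-named clusters. In the fits without 1 pool the estimate of Ikzf2 ran from 0.73 to 0.85, but its call did not hold in all of them. Within clusters 1 test passed with members kept among the variable genes, 1 at resolution 0.3 and 2 at resolution 0.8. The mean thinned share was lower in aged pools for 9 members, and for 5 to 10 without 1 pool, with no such count over all genes.

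Signs turned, without a call, for Spi1 in Cd48 cells (-0.029 without the filter, -0.064 with all barcodes, -0.097 thinned), in Slamf1 cells for Ikzf1 (0.028) and Runx2 (0.012) without the filter and for Tcf3 (-0.028 with RLE scaling, -0.062 with all barcodes), between classes for Gfi1 (-0.32 thinned), Runx2 (-0.18 with all barcodes, -0.41 thinned) and Runx1 (-0.041 without lineage-named clusters), and in the interaction for Runx1 (0.057 thinned) and Irf8 (-0.51 without lineage-named clusters). The cause was not tested. Leaving out 1 pool turned signs over whole pools for Gfi1 (-3.00 to 1.87), Ikzf1 (-0.96 to 0.24) and Tcf3 (-0.74 to 0.98). In Slamf1 cells it did so for Gfi1 (-2.18 to 1.83), Ikzf1 (-0.70 to 0.45), Runx2 (-0.54 to 0.32) and Tcf3 (-0.67 to 0.90). In Cd48 cells it did so for Cebpa (-0.999 to 2.32), Gfi1 (-8.81 to 1.63), Ikzf1 (-0.42 to 0.92), Ikzf2 (-0.29 to 0.071), Runx2 (-0.55 to 0.038), Spi1 (-0.30 to 0.27) and Tcf3 (-0.37 to 1.14). Between classes it did so for Gfi1 (-0.093 to 0.27) and Runx2 (-0.068 to 0.10), and in the interaction for Cebpa (-2.41 to 5.80). Few UMIs limit Cebpa and Gfi1 on platform B.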
